A study of Mesocricetus auratus with 36 samples.

Results

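Histamine receptors and histamine and histidine metabolism were followed through the hibernation season with 6 genes: the receptor genes Hrh1, Hrh2 and Hrh3, the histamine-forming enzyme gene Hdc, the histamine-inactivating enzyme gene Hnmt, and Uroc1, which encodes an enzyme of histidine breakdown. The members were picked by gene symbol with earlier results of these data known, and all 6 were found among the 32340 genes of the count tables. RNA came from the ependymal strip of the hypothalamus, cut by laser capture to enrich for tanycytes, the glial cells lining the third ventricle, in 36 male golden hamsters (Mesocricetus auratus), 6 in each of 6 groups. The long photoperiod group lived under 14 h of light at 22 °C and was 8 months old per the labels, although the protocol has some of these animals taken before the change of day length. The 5 other groups lived under 10 h of light at 8 °C. Pre-hibernation animals were taken at 4 weeks (4 months old), and late pre-hibernation animals at 8 to 12 weeks, with no torpor cycle yet (6 months old). After 3 torpor and arousal cycles, 1 group was taken 23 h into interbout euthermia, the warm phase between torpor bouts, and 1 group 13 h into torpor (both 6 months old). Refractory animals had given up hibernation after about 20 weeks of short days and were taken 2 weeks or more past their last bout (8 months old). All animals carried an implanted abdominal temperature logger. Light and cold changed together between long photoperiod and the 5 other groups and cannot be told apart. Age changed with them too, except in the refractory group, whose labelled age equals that of long photoperiod. Among the 5 groups on short days, age and weeks on short days changed with stage as well and cannot be told apart from it. Late pre-hibernation, interbout euthermia and torpor, all at 6 months, are the exception.

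Histamine is made from histidine by histidine decarboxylase (Hdc), in brain mainly in neurons of the tuberomammillary nucleus of the posterior hypothalamus and in mast cells, and is inactivated in brain by histamine N-methyltransferase (Hnmt). Histaminergic neurons fire during waking and fall silent in sleep, and histamine signalling has been studied in the control of arousal and of hibernation. The H1 receptor couples to Gq and phospholipase C, the H2 receptor to Gs and adenylyl cyclase, and the H3 receptor to Gi and Go, acting as a presynaptic autoreceptor and heteroreceptor that limits transmitter release. Histidine that does not become histamine can be broken down by histidase (Hal), urocanase (Uroc1), Amdhd1 and Ftcd in turn, a pathway best known from liver.

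The libraries held 5.16 to 28.54 M counts (1 M is 1000000), with a median of 22.44 M. Genes of ribosomal RNA took under 1% of counts in 33 libraries. They took 41.76% in refractory 4 (5.16 M counts), 9.28% in pre-hibernation 5 (12.74 M) and 7.21% in interbout euthermia 6 (14.11 M). Several results that rest on these 3 ribosomal RNA-rich libraries are given with and without them. All 12 tanycyte markers passed the filter on low counts, and their summed level averaged 2577 to 3170 counts per 1 M counts (CPM) in the groups. All 10 ependymal and all 14 neuron markers passed it too, so passing does not test the enrichment for tanycytes. Of the tanycyte markers Dio2, named after its values were seen, fell in pre-hibernation against long photoperiod (log2 fold change −3.06, adjusted p = 1.45e-05, edgeR). Dio2 was called lower in every other group too except interbout euthermia, where a fall did not pass the threshold. Rax fell in torpor. Genes of other cells were detected too: ependymal markers averaged 3518 to 4279 CPM, astrocyte markers 3934 to 5434 CPM, neuron markers 610 to 822 CPM and pituitary markers 118 to 678 CPM. In such bulk tissue, fewer cells of a type and less RNA per cell cannot be told apart.

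All 6 members are single protein-coding genes of the RefSeq annotation of assembly BCM_Maur_2.0, and 0 other annotated genes overlapped them. Uroc1 (bases 151406499 to 151439114, + strand) and Hrh1 (174794144 to 174885227, + strand) lie on the same contig. Hnmt (8271778 to 8330502, + strand) and Hdc (93195421 to 93214718, − strand) share another. Hrh2 (74176739 to 74220161, + strand) and Hrh3 (23521070 to 23526141, − strand) lie on contigs of their own.

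Per length of exon, Hnmt, Uroc1 and Hrh3 were the 3 best represented members. Hnmt averaged 3.32 ± 0.901 reads per kilobase per 1 M counts (RPKM; SD, n = 36), Uroc1 2.79 ± 1.11 RPKM and Hrh3 2.49 ± 1.58 RPKM. Hrh1 averaged 0.668 ± 0.322 RPKM, Hdc 0.324 ± 0.214 RPKM and Hrh2 0.0662 ± 0.214 RPKM. Uroc1, the highest of them by mean CPM, exceeded 38.1% of the genes tested. Hrh2 did not pass the filter on low counts, so 5 of the 6 members entered the tests below.

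A pattern over the season was resolved for 3 members in the test of all 6 groups. Uroc1 had its lowest mean on long photoperiod, Hnmt its highest means in the 2 groups before hibernation, and Hrh3 its highest mean in late pre-hibernation. These 3 of the 5 members tested passed in that test (adjusted p = 2.74e-06 for Uroc1, 0.00581 for Hnmt and 0.0112 for Hrh3; edgeR quasi-likelihood test), where 14.6% of all genes tested passed. Hrh1 (adjusted p = 0.167) and Hdc (adjusted p = 0.928) did not pass. As the members were chosen with earlier results of these data known, the count of 3 of 5 is descriptive and no test of the set.

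**Figure D1:**
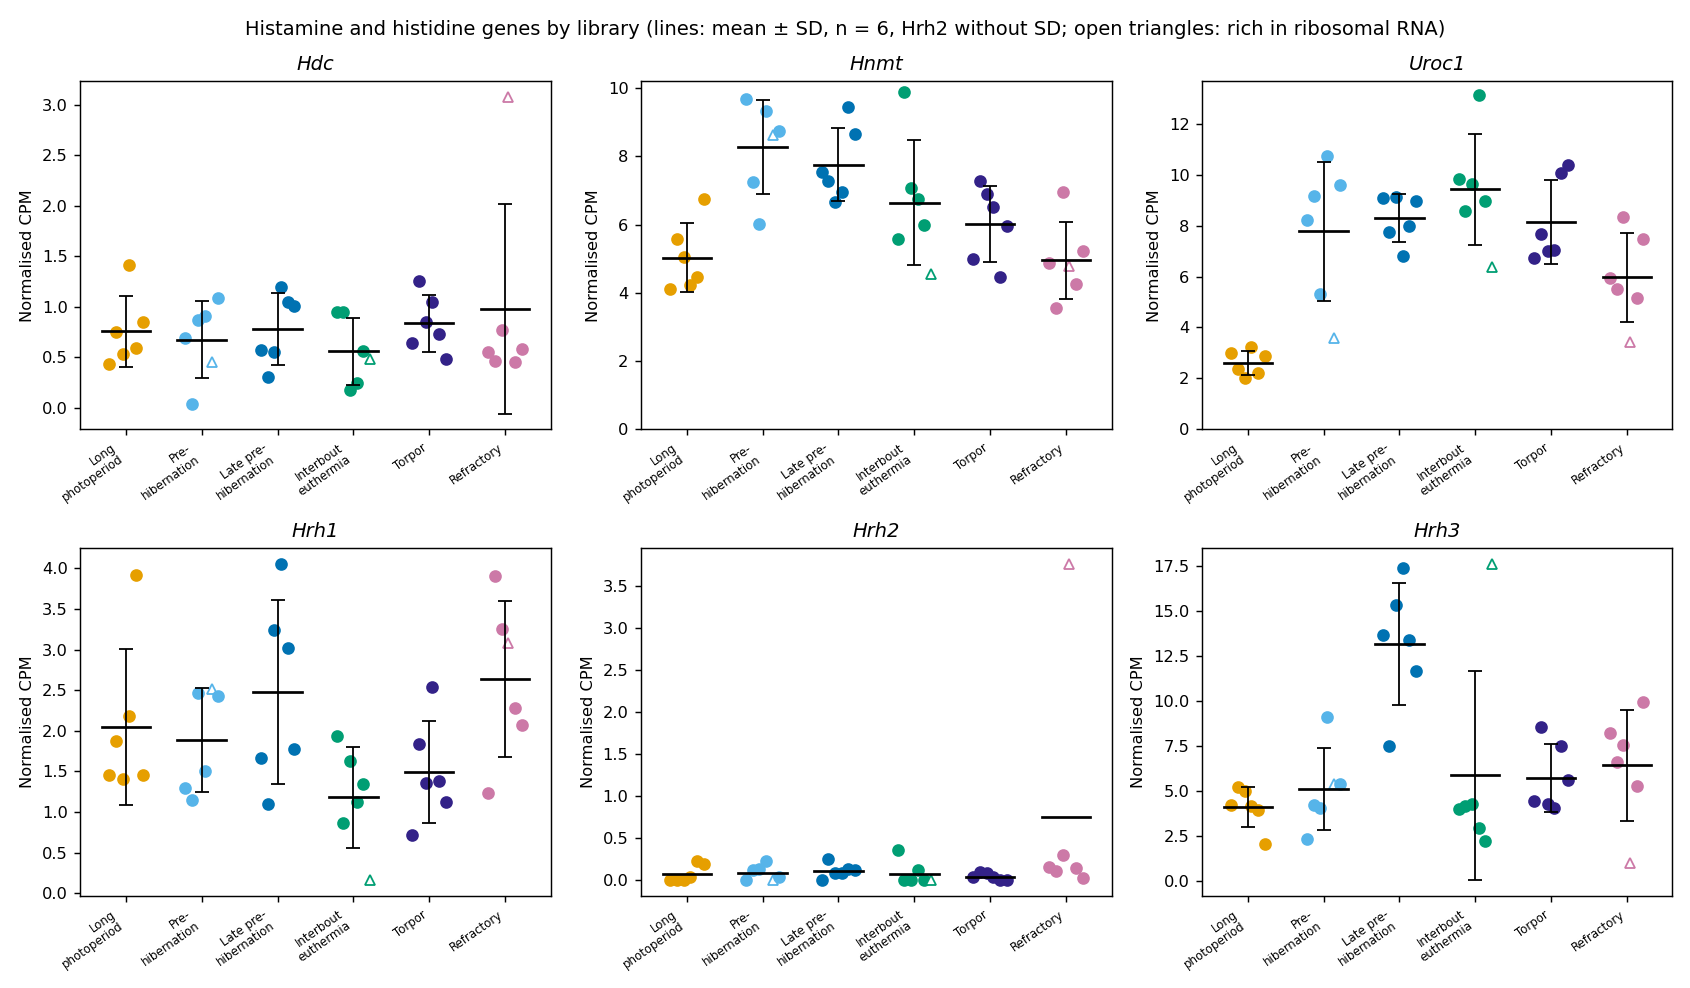
Normalised CPM of the 6 members in each of 36 libraries, by group along the season; points are libraries, black lines the group mean with its SD (n = 6; Hrh2 without SD), and open triangles the 3 libraries rich in ribosomal RNA. Uroc1 lay at 2.03 to 3.22 CPM on long photoperiod, below every library of the other 5 groups, and Hrh3 at 7.49 to 17.4 CPM in late pre-hibernation.

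Uroc1, the urocanase of the second step of histidine breakdown, had a lowest, median and highest level of 2.03, 2.63 and 3.22 CPM on long photoperiod. The 3 values were 3.60, 8.67 and 10.7 CPM in pre-hibernation, and 6.79, 8.48 and 9.13 CPM in late pre-hibernation. They were 6.39, 9.29 and 13.1 CPM in interbout euthermia, 6.71, 7.36 and 10.4 CPM in torpor, and 3.43, 5.73 and 8.33 CPM in the refractory state. Every library of the 5 groups on short days and cold lay above every long photoperiod library. The lowest of them were pre-hibernation 5 (3.60 CPM) and refractory 4 (3.43 CPM), both rich in ribosomal RNA.

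Uroc1 rose in all 5 comparisons with long photoperiod. It averaged 7.77 ± 2.74 CPM in pre-hibernation and 2.62 ± 0.475 CPM on long photoperiod (SD, n = 6 each), 2.98-fold higher (log2 fold change 1.58 ± 0.21 SE, adjusted p = 1.14e-05, edgeR). It averaged 8.28 ± 0.943 CPM in late pre-hibernation (3.16-fold, adjusted p = 3.47e-06), 9.42 ± 2.19 CPM in interbout euthermia (3.60-fold, adjusted p = 2.41e-06) and 8.14 ± 1.64 CPM in torpor (3.11-fold, adjusted p = 1.97e-06), against the same 2.62 CPM on long photoperiod. The 5 comparisons share the long photoperiod libraries.

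In refractory animals Uroc1 averaged 5.97 ± 1.74 CPM, against 2.62 ± 0.475 CPM on long photoperiod, 2.34-fold higher (log2 fold change 1.23 ± 0.21 SE, adjusted p = 0.00288, edgeR). This rise was lost when only these 2 groups were fitted (log2 fold change 1.21, adjusted p = 0.0863) and with only long photoperiod libraries 4 to 6 (1.13, adjusted p = 0.249); without the 3 ribosomal RNA-rich libraries it was 1.31 (adjusted p = 0.000111). In the order of group means, interbout euthermia, late pre-hibernation, torpor, pre-hibernation, refractory and long photoperiod, only the last pair of neighbours differed. The refractory animals lay −0.62 ± 0.21 log2 units from interbout euthermia, which did not pass (adjusted p = 0.0811); it passed in limma voom with quality weights (adjusted p = 0.0199), without the 3 ribosomal RNA-rich libraries (adjusted p = 0.0437), and without interbout euthermia 6 (adjusted p = 0.0464) or refractory 3 (adjusted p = 0.0371) alone.

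**Figure D2:**
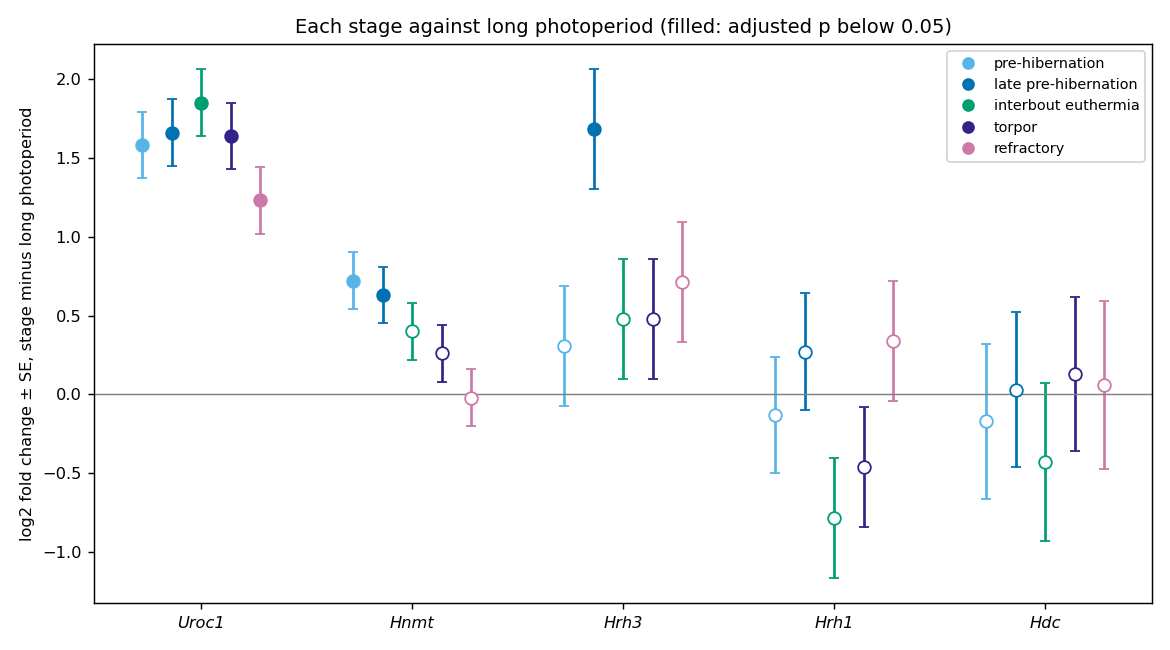
Log2 fold change of each stage against long photoperiod, with its SE, for the 5 members tested (n = 6 libraries per group); filled points passed at an adjusted p below 0.05. Uroc1 lies between 1.23 and 1.85 in all 5 stages, Hnmt is filled in pre-hibernation and late pre-hibernation, and Hrh3 in late pre-hibernation.

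The other enzymes of histidine breakdown did not pass in the edgeR fit of all groups. Hal, the histidase of the step before Uroc1, averaged 0.341 ± 0.225 CPM in pre-hibernation and 0.738 ± 0.417 CPM on long photoperiod (log2 fold change −1.06 ± 0.67 SE, adjusted p = 0.577). Amdhd1, the imidazolonepropionase of the step after it, averaged 9.29 ± 3.41 CPM in pre-hibernation and 14.9 ± 3.09 CPM on long photoperiod (−0.67 ± 0.26, adjusted p = 0.227), and 8.84 ± 2.10 CPM in interbout euthermia (−0.75 ± 0.26 against long photoperiod, adjusted p = 0.167). Ftcd, the last enzyme, had 67 counts in all 36 libraries together. These 3 genes are named as the other steps of the pathway, chosen after their values were seen. Voom called Amdhd1 lower in 4 of 5 groups against long photoperiod (pre-hibernation −0.55 on the log2 scale, adjusted p = 0.0241; late pre-hibernation −0.73, adjusted p = 0.00192; interbout euthermia −0.68, adjusted p = 0.0129; torpor −0.56, adjusted p = 0.0155), and edgeR called it in interbout euthermia in a fit of the 2 groups alone (adjusted p = 0.0387).

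Hnmt, which methylates and so inactivates histamine inside cells, had a lowest, median and highest level of 4.12, 4.75 and 6.74 CPM on long photoperiod. The values were 6.01, 8.68 and 9.67 CPM in pre-hibernation, and 6.67, 7.42 and 9.45 CPM in late pre-hibernation. They were 4.55, 6.37 and 9.89 CPM in interbout euthermia, 4.45, 6.24 and 7.28 CPM in torpor, and 3.56, 4.84 and 6.95 CPM in the refractory state. In each of the 2 pre-hibernation groups 5 of 6 libraries lay above all long photoperiod libraries, with the lowest inside their range. The torpor and refractory ranges overlapped it more widely.

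Hnmt rose in pre-hibernation, at 8.27 ± 1.38 CPM against 5.03 ± 1.01 CPM on long photoperiod (SD, n = 6 each), 1.64-fold (log2 fold change 0.72 ± 0.18 SE, adjusted p = 0.0189, edgeR). It rose in late pre-hibernation as well, at 7.76 ± 1.07 CPM (1.54-fold, log2 fold change 0.63 ± 0.18, adjusted p = 0.0351). With Uroc1 it was 1 of 2 members called in pre-hibernation, where 2.29% of all genes tested were called, and with Uroc1 and Hrh3 1 of 3 in late pre-hibernation, where 3.58% were. Against long photoperiod, Uroc1 was the 1 member called in interbout euthermia (1.85% of all genes called), in torpor (9.05%) and in the refractory state (0.329%).

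Both Hnmt calls against long photoperiod sat near the threshold. The pre-hibernation call was lost without any one of long photoperiod 1, 4 or 5 or pre-hibernation 1 or 4 (adjusted p up to 0.0658), with only long photoperiod 1 to 3 (adjusted p = 0.156) or 4 to 6 (adjusted p = 0.232) and with no filter on low counts (adjusted p = 0.056), with the log2 fold change at 0.65 to 0.81 as single libraries were left out. The late pre-hibernation call was lost without any one of long photoperiod 1, 3, 4 or 5 or late pre-hibernation 1, 5 or 6 (adjusted p up to 0.122), with only long photoperiod 1 to 3 (adjusted p = 0.201) or 4 to 6 (adjusted p = 0.266) and with no filter (adjusted p = 0.0892).

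In the refractory state the mean of Hnmt lay near that of long photoperiod, a group of the same labelled age, 8 months. Pre-hibernation animals were 4 months old and late pre-hibernation animals 6 months. Stage and age therefore cannot be told apart in the falls from those 2 groups. Refractory animals averaged 4.95 ± 1.14 CPM, against 8.27 ± 1.38 CPM in pre-hibernation, 1.67-fold lower (log2 fold change −0.74 ± 0.18 SE, adjusted p = 0.0139, edgeR), and Hnmt was the 1 member called there, where 5.35% of all genes were. This call held as each of the 12 libraries was left out in turn (adjusted p up to 0.0403) and was lost in a fit of the 2 groups alone (adjusted p = 0.142). Hnmt fell 1.56-fold in the refractory state against the 7.76 ± 1.07 CPM of late pre-hibernation (−0.65 ± 0.18, adjusted p = 0.0305), again as the 1 member called, beside 5.39% of all genes; leaving out single libraries ended that call in 6 of 12 fits (adjusted p up to 0.0804), and so did a fit of the 2 groups alone (adjusted p = 0.183). Against long photoperiod the refractory log2 fold change was −0.02 ± 0.18 (adjusted p = 0.976). In the order of its group means, from pre-hibernation through late pre-hibernation, interbout euthermia, torpor and long photoperiod to the refractory state, no 2 neighbours differed.

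Markers of other cells moved beside the rises of Hnmt and Uroc1. The summed level of 10 astrocyte markers ran from 3553 to 4476 CPM in pre-hibernation and from 4346 to 5571 CPM on long photoperiod, with 1 of 10 markers called, Ntsr2 (named after its values were seen), which fell in all 5 comparisons with long photoperiod. The sum of 9 pituitary markers ran from 82.4 to 235 CPM in pre-hibernation and from 167 to 2404 CPM on long photoperiod, with 2 of the 8 tested called, both lower; late pre-hibernation had 1 such call, interbout euthermia 5, torpor 5 and the refractory state 0. The sum of 8 endothelial markers ran from 180 to 256 CPM in pre-hibernation and from 213 to 528 CPM on long photoperiod, with Kdr called higher. The part of these 3 cell types in the results was not tested. With the mean levels of neuron and oligodendrocyte markers as covariates, the pre-hibernation log2 fold change was 1.52 for Uroc1 (adjusted p = 5e-05) and 0.71 for Hnmt (adjusted p = 0.0339).

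Hrh3, the H3 receptor, had a lowest, median and highest level of 2.08, 4.19 and 5.26 CPM on long photoperiod. The values were 2.33, 4.81 and 9.14 CPM in pre-hibernation, and 7.49, 13.5 and 17.4 CPM in late pre-hibernation. They were 2.21, 4.08 and 17.7 CPM in interbout euthermia, 4.07, 5.04 and 8.59 CPM in torpor, and 1.03, 7.08 and 9.98 CPM in the refractory state. All 6 late pre-hibernation libraries lay above all 6 of long photoperiod, and 5 of 6 above all of pre-hibernation. The extremes of interbout euthermia (17.7 CPM, library 6) and of the refractory state (1.03 CPM, library 4, 3 counts) came from ribosomal RNA-rich libraries.

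Hrh3 rose in late pre-hibernation, at 13.2 ± 3.39 CPM against 4.11 ± 1.12 CPM on long photoperiod (SD, n = 6 each), 3.20-fold (log2 fold change 1.68 ± 0.38 SE, adjusted p = 0.0061, edgeR). The call held as each of the 12 libraries was left out (log2 fold change 1.53 to 1.78, adjusted p up to 0.0229). It was lost with only long photoperiod 1 to 3 (1.43, adjusted p = 0.201) or only 4 to 6 (1.94, adjusted p = 0.0552). Both fits hold fewer long photoperiod libraries, and the effect of fewer samples on the call cannot be told apart from other reasons.

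The differences of late pre-hibernation from the other stages were less firmly resolved. At 13.2 ± 3.39 CPM, late pre-hibernation lay 1.37 ± 0.38 log2 units above the 5.10 ± 2.28 CPM of pre-hibernation (adjusted p = 0.474), a comparison in which 0% of all genes were called. With edgeR 0 members were called there, 1 had an unadjusted p below 0.05, DESeq2 called 0 and limma voom with quality weights 1 (Hrh3, log2 difference 1.59, adjusted p = 0.000438). Interbout euthermia averaged 5.88 ± 5.83 CPM, −1.19 ± 0.38 log2 units from late pre-hibernation (adjusted p = 0.441), again with 0% of all genes and 0 members called, 2 members at an unadjusted p below 0.05, 0 called by DESeq2 and 1 by voom.

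The interbout euthermia mean of Hrh3 rested on library 6. Without it the difference from late pre-hibernation was −1.90 (adjusted p = 0.0105, edgeR), and without all 3 ribosomal RNA-rich libraries −1.91 (adjusted p = 0.00175). Its neuron marker sum, 764 CPM, lay inside the 506 to 922 CPM of the group; its share of counts on ribosomal RNA genes was 7.21% and on mitochondrial genes 14.3%.

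Torpid animals averaged 5.76 ± 1.89 CPM of Hrh3, against 13.2 ± 3.39 CPM in late pre-hibernation (log2 fold change −1.20 ± 0.38, adjusted p = 0.061, edgeR; 4.45% of all genes were called and 0 members, with 2 members at an unadjusted p below 0.05). DESeq2 called Hrh3 there (adjusted p = 0.0226), and so did voom (adjusted p = 6.92e-05), the fit of the 2 groups alone (adjusted p = 0.00372) and the fit without ribosomal RNA-rich libraries (adjusted p = 0.00119). Refractory animals averaged 6.45 ± 3.09 CPM, −0.97 ± 0.38 log2 units from late pre-hibernation (adjusted p = 0.117; voom −0.88, adjusted p = 0.00914). In the order of group means, late pre-hibernation, refractory, interbout euthermia, torpor, pre-hibernation and long photoperiod, no 2 neighbours differed by edgeR.

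**Figure D3:**
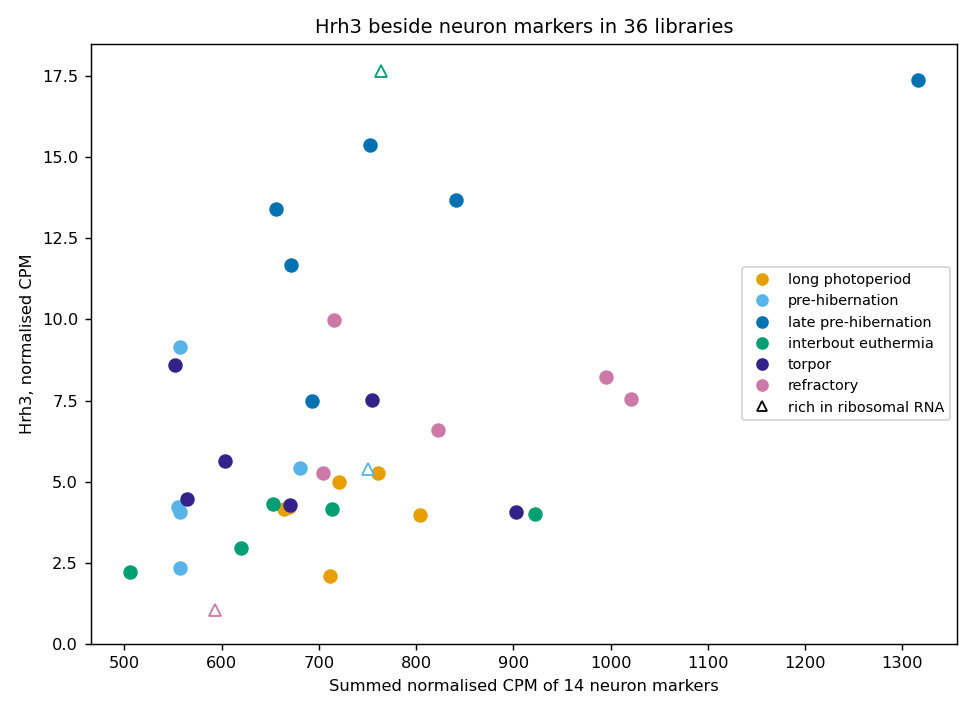
Normalised CPM of Hrh3 against the summed normalised CPM of 14 neuron markers in 36 libraries, coloured by group; open triangles are the libraries rich in ribosomal RNA. Late pre-hibernation libraries lie at 7.49 to 17.4 CPM of Hrh3, over neuron sums from 656 to 841 CPM except library 4, at 1316 CPM. Libraries of pre-hibernation (9.14 CPM), torpor (7.53 and 8.59), refractory animals (7.55, 8.24 and 9.98) and interbout euthermia (17.7) reach into or above that Hrh3 range.

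As H3 receptors are known mainly from neurons, Hrh3 was set beside the neuron markers. Their sum ran from 656 to 1316 CPM in late pre-hibernation and from 664 to 804 CPM on long photoperiod, and 0 of 14 markers were called (1 had an unadjusted p below 0.05; median log2 fold change 0.12). In late pre-hibernation against pre-hibernation their median was 0.62, with 8 of 14 at an unadjusted p below 0.05 and 0 called. In interbout euthermia against late pre-hibernation it was −0.44, with 3 of 14 and 0 called (1 called, lower, without the ribosomal RNA-rich libraries). Hrh3 had the same sign in both. Against long photoperiod the marker median and the Hrh3 log2 fold change had opposite signs in pre-hibernation (−0.37 and 0.31), interbout euthermia (−0.28 and 0.48) and torpor (−0.15 and 0.48). In the refractory state they had the same sign (0.22 and 0.71), as in refractory animals against interbout euthermia (0.48 and 0.23). None of these further differences was called for Hrh3 by edgeR. Late pre-hibernation 4 had the highest neuron sum of all libraries, 1316 CPM, and the highest Hrh3 level of its group, 17.39 CPM. Late pre-hibernation 5 had a neuron sum of 656 CPM and 13.39 CPM of Hrh3. With neuron and oligodendrocyte markers as covariates the Hrh3 log2 fold change of late pre-hibernation was 1.64 against long photoperiod (adjusted p = 0.0015), beside 1.68 without them, and 1.31 against pre-hibernation (adjusted p = 0.739), beside 1.37. That of interbout euthermia against late pre-hibernation was −1.29 (adjusted p = 0.205), beside −1.19.

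Hrh1, the Gq-coupled receptor behind the waking effect of histamine, was low, and no comparison called it with edgeR. Its lowest, median and highest levels were 1.41, 1.67 and 3.92 CPM on long photoperiod, and 1.15, 1.97 and 2.52 CPM in pre-hibernation. They were 1.10, 2.40 and 4.06 CPM in late pre-hibernation, and 0.16, 1.23 and 1.94 CPM in interbout euthermia. In torpor they were 0.716, 1.37 and 2.54 CPM, and in the refractory state 1.23, 2.68 and 3.91 CPM. All groups overlapped.

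The refractory mean of Hrh1, 2.64 ± 0.962 CPM, stood 1.12 log2 units above the 1.18 ± 0.623 CPM of interbout euthermia (adjusted p = 0.0935, edgeR). The difference lay at 0.91 to 1.31 as single libraries were left out (adjusted p from 0.0597 to 0.187, edgeR). In that comparison 3.50% of all genes and 0 members were called, 3 members had an unadjusted p below 0.05, DESeq2 called 0 and voom 2 (Uroc1, and Hrh3 at a log2 difference of 0.94, adjusted p = 0.0414; beside 0.23 and an adjusted p of 0.778 in edgeR). Without the 3 ribosomal RNA-rich libraries the Hrh3 difference was 1.10 (adjusted p = 0.0322). Voom also called Hrh1 in the test of 6 groups (adjusted p = 0.0293), in torpor against late pre-hibernation (−0.93, adjusted p = 0.0323) and in the refractory state against torpor (0.95, adjusted p = 0.0431). Torpor and interbout euthermia did not separate any member: 0 of 5 were called by edgeR, DESeq2 or voom, with 0 at an unadjusted p below 0.05, while 4.06% of all genes were called.

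Hdc, the histamine-forming enzyme, was detected in every library but at low depth, with a median of 16 counts. Its lowest, median and highest levels were 0.434, 0.666 and 1.41 CPM on long photoperiod, and 0.0384, 0.778 and 1.09 CPM in pre-hibernation. They were 0.300, 0.789 and 1.20 CPM in late pre-hibernation, and 0.176, 0.521 and 0.948 CPM in interbout euthermia. In torpor they were 0.482, 0.791 and 1.26 CPM, and in the refractory state 0.448, 0.566 and 3.08 CPM. The groups overlapped throughout. At this depth no difference from long photoperiod was detectable (adjusted p from 0.845 to 0.994, edgeR). The refractory log2 fold change was 0.06, and −0.44 without the 3 ribosomal RNA-rich libraries (adjusted p = 0.864, edgeR).

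Of the mast cell markers, Cpa3 was at 0 in 22 libraries, Ms4a2 in 25 and Fcer1a in 27. Refractory 4 alone held 33 counts of Cpa3 (32 in the other 35 libraries together), 29 of Ms4a2 (25) and 15 of Fcer1a (16), and the same library gave the highest Hdc level (9 counts) and the highest Hrh2 level. The summed mast cell markers came to 49.7 CPM there, within 4.36 to 49.7 CPM in refractory animals, against 5.81 to 19.5 CPM on long photoperiod, most of it from Kit, which other brain cells also express, in the libraries other than refractory 4. The part of such cells in the levels was not tested. Summed markers of histaminergic neurons, of which Hdc and Maob are 2, ran from 97.3 to 109 CPM in late pre-hibernation and from 82.9 to 96.5 CPM on long photoperiod, with 1 of 9 called (Maob). The median log2 fold change of the 9 was 0.06, with Maob at 0.56 and Hdc at 0.03.

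Hrh2, the Gs-coupled receptor, had 84 counts over 36 libraries. It was at 0 in 12 of them, which at 3 counts per library allows up to 0.112 to 0.235 CPM. The group means lay between 0.0439 CPM (torpor) and 0.110 CPM (late pre-hibernation), except the refractory state at 0.754 CPM, where library 4 gave 11 counts (3.77 CPM) and the median was 0.154 CPM. Without the filter the test of 6 groups gave an adjusted p of 0.176. Hrh4, the receptor best known from immune cells and named here after its values were seen, had 35 counts in all and was at 0 in 24 libraries; 9 of its counts lay in refractory 4.

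Across the 36 libraries the members were at most moderately correlated. The highest Pearson r of log2 CPM between 2 members was 0.48, for Hnmt and Uroc1, and the lowest −0.20, for Hrh1 and Uroc1. All such values share library depth and the season's groups and are given as descriptions over 36 libraries. The genes most like Uroc1 were Irf5 (r = 0.86), Rtl4 (0.83) and Trpc5 (0.81); Irf5 averaged 80.9 CPM in late pre-hibernation and 9.94 CPM on long photoperiod. Those most like Hnmt were Sigirr (0.80), Psmb8 (0.75) and Copz2 (0.73), with Psmb8, an immunoproteasome subunit, at 46.5 CPM in pre-hibernation and 22.4 CPM on long photoperiod. Those most like Hrh3 were Ywhah (0.76), Itfg1 (0.74) and Ebag9 (0.74), those most like Hrh1 were Ptpro (0.74), Gpr35 (0.71) and Rbm11 (0.71), and those most like Hdc were Pcsk1 (0.69), Ca10 (0.61) and Mrap2 (0.56).

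Of 24 other genes of histamine and histidine handling (transport, breakdown, exchange, and Hrh4), 22 were in the tables and 19 were tested. In pre-hibernation against long photoperiod 1 rose and 1 fell, in late pre-hibernation 2 and 2, in interbout euthermia 1 and 1, in torpor 3 and 2, and in the refractory state 0 and 0 (3 at an unadjusted p below 0.05; DESeq2 and voom each called 1). Over all genes 2.29%, 3.58%, 1.85%, 9.05% and 0.329% were called in these comparisons. In the same order of stages the median log2 fold changes of the 19 were −0.31, −0.13, −0.21, −0.11 and −0.09, beside medians of 0 to 0.03 over all genes tested. Without the 3 ribosomal RNA-rich libraries the rises and falls numbered 2 and 1 (pre-hibernation), 2 and 2 (late pre-hibernation), 2 and 2 (interbout euthermia), 3 and 3 (torpor) and 0 and 1 (refractory), while the calls over all 17903 genes then tested numbered 1141, 1747, 847, 3787 and 95.

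**Figure D4:**
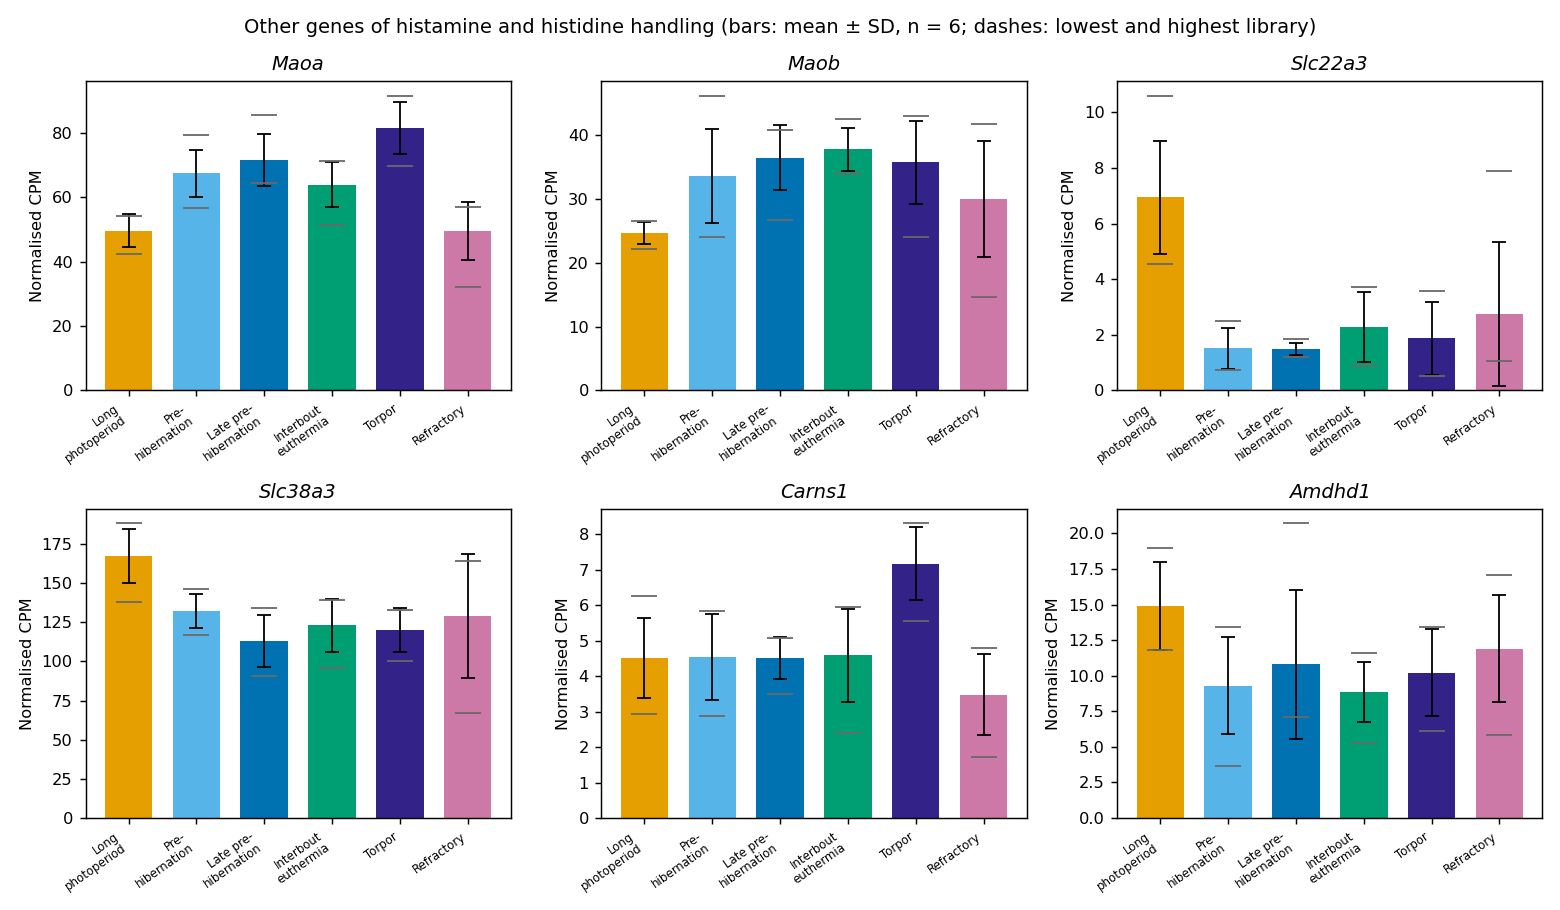
Mean normalised CPM with SD (n = 6) of 6 other genes of histamine and histidine handling by group; grey dashes mark the lowest and highest library. Slc22a3 averaged 1.49 to 2.74 CPM in the 5 groups on short days and 6.94 CPM on long photoperiod, and Maoa was highest in torpor at 81.5 CPM.

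Slc22a3, an organic cation transporter of low affinity that takes up histamine and other amines, fell in 4 groups. It averaged 1.51 ± 0.734 CPM in pre-hibernation, against 6.94 ± 2.05 CPM on long photoperiod (log2 fold change −2.20 ± 0.44 SE, adjusted p = 0.00281, edgeR). It averaged 1.49 ± 0.214 CPM in late pre-hibernation (−2.21 ± 0.44, adjusted p = 0.00149), 2.29 ± 1.26 CPM in interbout euthermia (−1.59 ± 0.43, adjusted p = 0.0429) and 1.87 ± 1.31 CPM in torpor (−1.88 ± 0.43, adjusted p = 0.00359). The highest library of these 4 groups, at 3.71 CPM, lay below the lowest on long photoperiod, at 4.55 CPM. The interbout euthermia call was lost in 9 of 12 fits without 1 library (adjusted p up to 0.123), and the pre-hibernation call with only long photoperiod 1 to 3 (adjusted p = 0.0518). In refractory animals, where edgeR did not call it, the mean was still below the 6.94 CPM of long photoperiod, at 2.74 ± 2.60 CPM, with libraries from 1.05 to 7.88 CPM. Slc18a2, the vesicular transporter that loads histamine and other amines, averaged 6.18 ± 0.766 CPM in torpor and 8.36 ± 1.62 CPM on long photoperiod (−0.43 ± 0.17, adjusted p = 0.116; −0.45 and an adjusted p of 0.0259 without the ribosomal RNA-rich libraries); it was named after its values were seen.

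The monoamine oxidase genes moved the other way; MAO-B acts on tele-methylhistamine, the product of Hnmt. Maoa averaged 81.5 ± 8.03 CPM in torpor and 49.6 ± 5.12 CPM on long photoperiod (log2 fold change 0.72 ± 0.11, adjusted p = 2.22e-05, edgeR), with rises of 0.44 in pre-hibernation (adjusted p = 0.018) and 0.53 in late pre-hibernation (adjusted p = 0.00211). Maob averaged 37.8 ± 3.38 CPM in interbout euthermia and 24.7 ± 1.73 CPM on long photoperiod (0.61 ± 0.16, adjusted p = 0.0294), and rose by 0.54 in torpor (adjusted p = 0.0234). It rose by 0.56 in late pre-hibernation too (adjusted p = 0.031, edgeR), a call for which no alternative fits are given. Leaving out 1 library ended the Maoa call of pre-hibernation in 4 of 12 fits, and the Maob calls in 8 of 12 in interbout euthermia and 6 of 12 in torpor (adjusted p up to 0.0824, 0.082 and 0.0843). Slc38a3, which carries glutamine and histidine, fell in late pre-hibernation at 113 ± 16.7 CPM, against 167 ± 17.2 CPM on long photoperiod (−0.57 ± 0.14, adjusted p = 0.0154), a call lost without late pre-hibernation 1 (adjusted p = 0.0571). Carns1, which makes carnosine and homocarnosine from histidine, passed in the test of 6 groups (adjusted p = 0.0154), with 7.17 ± 1.02 CPM in torpor and 4.52 ± 1.13 CPM on long photoperiod. With 3 long photoperiod libraries only, the calls of Maob in interbout euthermia and torpor, of Slc38a3 and of Maoa in pre-hibernation were lost (adjusted p from 0.0552 to 0.438), as they were with no filter on low counts (adjusted p from 0.0904 to 0.186); the late pre-hibernation call of Maoa was lost with long photoperiod 4 to 6 only (adjusted p = 0.177).

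Among 37 genes through which the receptors signal, all 36 in the tables were tested. Against long photoperiod 1 rose and 1 fell in pre-hibernation and again in late pre-hibernation, 0 rose and 1 fell in interbout euthermia and in the refractory state, and 1 rose and 3 fell in torpor, beside 2.29%, 3.58%, 1.85%, 0.329% and 9.05% of all genes called in the same comparisons. Their median log2 fold changes lay between −0.09 and 0.15. Without the ribosomal RNA-rich libraries the rises and falls numbered 2 and 1 (pre-hibernation), 2 and 3 (late pre-hibernation), 0 and 1 (interbout euthermia), 3 and 7 (torpor) and 0 and 1 (refractory). Over all 17903 genes then tested, 1141, 1747, 847, 3787 and 95 were called in the same order of stages. Adcy2, an adenylyl cyclase stimulated by Gs and by G protein beta gamma, fell in all 5 groups, for example at 50.8 ± 12.1 CPM in late pre-hibernation against 150 ± 53.1 CPM on long photoperiod (log2 fold change −1.56 ± 0.22, adjusted p = 1.91e-05, edgeR). Its pre-hibernation fall (−1.05, adjusted p = 0.0045) was lost with only long photoperiod 4 to 6 (adjusted p = 0.164). In the refractory state its fall (−1.37, adjusted p = 0.00115) was lost in a fit of the 2 groups alone (adjusted p = 0.101) and with only long photoperiod 4 to 6 (adjusted p = 0.153). Prkacb, a catalytic subunit of protein kinase A, rose in late pre-hibernation at 93.3 ± 15.1 CPM against 47.9 ± 2.81 CPM (0.96 ± 0.16, adjusted p = 0.000183).

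In torpor Adcy6, another adenylyl cyclase, fell to 27.6 ± 2.14 CPM, against 43.3 ± 9.83 CPM in interbout euthermia (log2 fold change −0.65 ± 0.11, adjusted p = 0.00037, edgeR), 1 of 2 genes of this list called there. The other was Grk2, a receptor kinase that desensitises active receptors, at 3.53 ± 1.00 CPM in torpor and 5.74 ± 1.48 CPM in interbout euthermia (−0.69 ± 0.20, adjusted p = 0.0413); 8 of 12 fits without 1 library did not call it. Kcnj3, a channel subunit opened by Gi-coupled receptors, was called in refractory animals against interbout euthermia (2.46 ± 0.64, adjusted p = 0.0262), which rested on refractory 4: without that library it was 0.82 (adjusted p = 0.297), and 5 of 12 fits without 1 library did not call it.

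Of 31 receptor genes for other amines, 22 were tested. Against long photoperiod 0 passed in pre-hibernation (4 at an unadjusted p below 0.05; 0 by DESeq2 and 4 by voom), 2 rose in late pre-hibernation and 2 in interbout euthermia, 1 rose and 1 fell in torpor, and 0 passed in the refractory state (8 at an unadjusted p below 0.05; 3 by DESeq2 and 1 by voom), beside 2.29%, 3.58%, 1.85%, 9.05% and 0.329% of all genes. Their median log2 fold changes lay between −0.29 and 0.63. Without the ribosomal RNA-rich libraries the rises and falls numbered 3 and 0 (pre-hibernation), 5 and 0 (late pre-hibernation), 1 and 0 (interbout euthermia), 3 and 3 (torpor) and 0 and 0 (refractory). That fit called 1141, 1747, 847, 3787 and 95 of all 17903 genes tested, in the same order of stages. Adra1a, an alpha-1 adrenergic receptor, rose in late pre-hibernation, at 4.67 ± 1.19 CPM against 1.40 ± 0.698 CPM on long photoperiod (log2 fold change 1.73 ± 0.38, adjusted p = 0.00468, edgeR), a call lost with only long photoperiod 4 to 6 (1.35, adjusted p = 0.144). It rose as well in interbout euthermia (1.65, adjusted p = 0.0147) and torpor (1.61, adjusted p = 0.00477), 2 groups in which Hrh3 was not called against long photoperiod; both calls were lost with only long photoperiod 4 to 6 (adjusted p = 0.286 and 0.131). Htr6, a Gs-coupled serotonin receptor, was called in interbout euthermia (2.36 ± 0.54, adjusted p = 0.0125), where library 6 held 32.3 CPM; without that library the log2 fold change was 1.00 (adjusted p = 0.247).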

How the data were processed

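The deposited values were raw read counts of the authors, in a separate table for each of 36 laser-captured strips. Per the file headers, read pairs were counted per gene with featureCounts 2.0.1, without strand, on exons of the RefSeq annotation of assembly BCM_Maur_2.0; an aligner version is not given in the sources used. The gene lengths in the deposited tables served for RPKM. All 36 libraries went into a single robust quasi-likelihood fit (edgeR 4.0.16, R 4.3.3) of the 17926 genes that filterByExpr kept, with TMM scaling and Benjamini-Hochberg adjustment over all of them (threshold 0.05). Normalised CPM carry that scaling, and 2 was the prior count on the log2 scale. Each of 15 pairs of groups and the 6 groups together were tested; 9 pairs are the comparisons of the design. Hrh2 was tested without the filter. Samples were grouped by title, and each is 1 animal.

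The members, the 3 gene lists, the 11 marker lists and the tests were chosen with earlier results of these data known. Named genes are the members, up to 3 called genes per list and comparison with the smallest p, and the 3 genes of highest Pearson r with each member tested, where the mean log2 CPM reached 1. A gene of the amine receptor list is not reported here. Alternatives were RLE factors, DESeq2 1.42.0, voom of limma 3.58.1, 2 other filters, removal of ribosomal RNA and mitochondrial genes, a replicate block, marker covariates, fits of 2 groups, long photoperiod libraries 1 to 3 or 4 to 6 only, and leaving out libraries. The sample labels name no batch that sets long photoperiod 1 to 3 apart from 4 to 6. Calls lost in those fits cannot be told apart from the effect of fewer samples. Every value column was used, and 0 pairs of libraries were identical. Sampling floors of 3 counts cover counting error only. The workflow was tested on simulated data with known changes. Tables were made with pandas 2.3.3 in Python 3.11.15 and plots with matplotlib 3.10.9.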

Additional observations from a re-analysis of the deposited data

Results flagged for a closer look

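Within 30 combinations of a tested member and a group of 6, a library was marked when the gap to its nearest neighbour on the log2 CPM scale exceeded the share of the group's range set by Dixon's test at 95%, which chance gives in about 1 of 20 groups. There were 6 such values, and 4 of them came from interbout euthermia 6 and refractory 4, which are rich in ribosomal RNA. Hrh3 stood high in interbout euthermia 6 at 17.66 CPM (gap 0.68 of the range) and low in refractory 4 at 1.03 CPM (0.71) and in long photoperiod 6 at 2.08 CPM (0.69). Hdc stood high in refractory 4 at 3.08 CPM (0.73), which is 9 counts, and low in pre-hibernation 2 at 0.04 CPM (0.65), which is 1 count. Hrh1 stood low in interbout euthermia 6 at 0.16 CPM (0.64), which is 2 counts. Refractory 4 had 41.76% of its counts on ribosomal RNA genes and interbout euthermia 6 had 7.21%.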

How the results depend on the processing

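None of the 10 called fold changes of members reversed under any alternative run; of 1700 fold changes under alternatives, 79 changed sign, all for values not called. Members called in pre-hibernation against long photoperiod numbered 2, but 1 with no filter, with long photoperiod 1 to 3 only or with 4 to 6 only, and 1 to 2 as single libraries were left out. In late pre-hibernation against long photoperiod they numbered 3, but 1 with long photoperiod 1 to 3 only or 4 to 6 only; in refractory animals 1, but 0 in the fit of 2 groups alone or with long photoperiod 4 to 6. Where 0 were called, voom with quality weights called 1 in late pre-hibernation against pre-hibernation, 1 in interbout euthermia against late pre-hibernation and 2 in refractory against interbout euthermia; without the 3 ribosomal RNA-rich libraries the last 2 were 1 and 2, and with single libraries left out 0 to 1 each. The cause was not tested, except that fits of fewer libraries hold fewer samples. Replicate numbers did not pair the animals: same-numbered libraries correlated from −0.338 to 0.481 (90 pairs). With a replicate block 2 members were called in late pre-hibernation against long photoperiod, as Hnmt missed (adjusted p = 0.0502), and Hnmt in refractory against late pre-hibernation missed too (adjusted p = 0.0591). Medians of all genes moved by at most 0.022 under RLE. Hdc and Hrh2 are limited by depth.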
